A study of Mus musculus with 4 samples.

Results

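The Shh to Mnx1 domain is the stretch of mouse chromosome 5 from 28300000 to 29600000 (mm10). It runs from Rbm33 over Shh and a gene desert to Rnf32, Lmbr1, Nom1 and Mnx1. Its members are the CTCF regions that overlap this window, formed by joining peaks of 4 deposited lists wherever they share a base. There were 54 such regions, of 121759 on chromosomes 1 to 19, X and Y. Posterior trunk was taken from embryos at day 10 (E10), and comprised the tailbud, the presomitic mesoderm and the last somites, with most of the hindlimb bud left out. Brain (pooled telencephalon), distal forelimb and proximal forelimb were from E12.5, and the forelimb libraries are re-analysed older data. All embryos were wild type and labelled B6CBAF1, and all libraries were made with the same CTCF antibody. The tissue pieces were pools of cells of several kinds. Peak lists hold no marker expression, so the tissue labels could not be checked. Each tissue had 1 library, so differences between tissues carry no replicate error and no test across tissues was run. Tissue cannot be told apart from stage for trunk, nor from the older data for the forelimb parts.

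CTCF binds DNA through its zinc fingers and can halt cohesin, and its sites are found at many domain borders and loop anchors of the genome. Shh encodes Sonic hedgehog, a secreted signal that patterns the limb from its posterior margin and the neural tube from its floor. The limb enhancer of Shh, known as the ZRS, lies far from the gene in an intron of Lmbr1, a gene for a membrane protein, and CTCF sites near Shh and in Lmbr1 are known to flank this domain. Mnx1, a homeobox gene of motor neurons and pancreas, lies beyond Lmbr1. Rnf32 encodes a RING finger protein and Nom1 a nucleolar protein. The tables used here give gene spans but no enhancer positions, so no region was assigned to the ZRS.

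The promoters of Nom1 and Mnx1 are shown for their nearness to CTCF peaks. Of the 12 promoter windows listed for the domain, that of Nom1 was the only one overlapped by a peak. Among the member genes listed, Mnx1 had the window nearest to a region called in all 4 tissues. Both are from RefSeq, build GRCm38.p6 (the assembly of mm10), 5′ to 3′ on the strand of the gene, from 250 bases before to 50 bases after the gene start. Of the 5 member genes 4 had an entry. Capitals mark a match to a loose CTCF core pattern, read on both strands, of CCA, any 2 bases, AG, any 2 bases and GGC.

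Nom1, chr5:29434417-29434716, plus strand: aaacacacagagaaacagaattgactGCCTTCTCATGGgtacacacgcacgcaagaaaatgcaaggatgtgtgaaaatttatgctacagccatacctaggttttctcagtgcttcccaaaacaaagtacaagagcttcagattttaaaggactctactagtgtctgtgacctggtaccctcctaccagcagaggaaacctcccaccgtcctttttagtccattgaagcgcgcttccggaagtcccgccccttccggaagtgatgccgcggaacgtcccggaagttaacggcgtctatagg

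Mnx1, chr5:29478421-29478720, minus strand: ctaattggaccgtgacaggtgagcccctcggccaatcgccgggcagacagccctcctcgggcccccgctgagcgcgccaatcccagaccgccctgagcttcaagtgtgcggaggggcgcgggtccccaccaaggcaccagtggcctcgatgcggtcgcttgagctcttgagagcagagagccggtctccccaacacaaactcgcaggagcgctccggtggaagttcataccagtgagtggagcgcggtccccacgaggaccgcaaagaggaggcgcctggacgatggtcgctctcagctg

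The Nom1 window held 1 match, on the opposite strand at positions 27 to 38, and the Mnx1 window held 0. Of all 32851 promoter windows, 2.43% held a match, and of those overlapped by a posterior trunk peak 6.96% did. The posterior trunk peak 29434414-29434714 overlapped the Nom1 window, and its summit, at position 178, lay 140 bases from the match. Nearer the summit, the unmarked stretch ccagcagaggaa follows the pattern except that it ends in gaa instead of GGC. Which stretch CTCF bound was not tested, so the capitals do not mark the site of this peak. Posterior trunk peaks overlapped 17.3% of all promoter windows, so an overlap at 1 gene is no mark of Nom1. No peak of the other 3 tissues came within 16973 bases of the Nom1 window. The Mnx1 window was 338 bases from the nearest distal forelimb peak, 401 from posterior trunk, 517 from proximal forelimb and 547 from brain. These peaks lie on the upstream side of Mnx1.

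CTCF marked the domain with the same backbone of 15 regions in every tissue, and a further 19 regions were called in posterior trunk only. The 15 regions were 27.8% of the 54, where 42.4% of all regions genome-wide were called in all 4 tissues. Regions called in posterior trunk only numbered 19, or 35.2% against 28.4% genome-wide. Distal forelimb alone had 5, which is 9.26% against 3.11%. Brain alone had 3, or 5.56% against 5.92%, and proximal forelimb alone had 1, or 1.85% against 2.23%. The remaining 11 regions were called in 2 or 3 tissues. Posterior trunk was called at 44 regions, or 81.5% against 87.5% genome-wide, and brain at 26, or 48.1% against 60.5%. Distal forelimb was called at 25, or 46.3% against 52.8%, and proximal forelimb at 22, or 40.7% against 52%. Relative to distal forelimb, the depths read from the lowest background of each list were 2.21 for trunk, 2.02 for brain and 1.08 for proximal forelimb. When pileups were thinned until the lowest background was alike in each list and a −log10 p of at least 5 was required of every list, 37 regions were left in the domain; this pair of steps is called the thinned setting. The same number of 15, or 40.5%, was then called in all 4 tissues, against 51.9% of all regions genome-wide. Trunk-only regions numbered 5 in the thinned setting, or 13.5% against 20.5% genome-wide, so their share was then below that of the genome. Distal-only regions numbered 6, or 16.2% against 3.53%. With the same −log10 p but no thinning, 13 of 47 regions were trunk-only, or 27.7% against 28.1%.

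**Figure D1:**
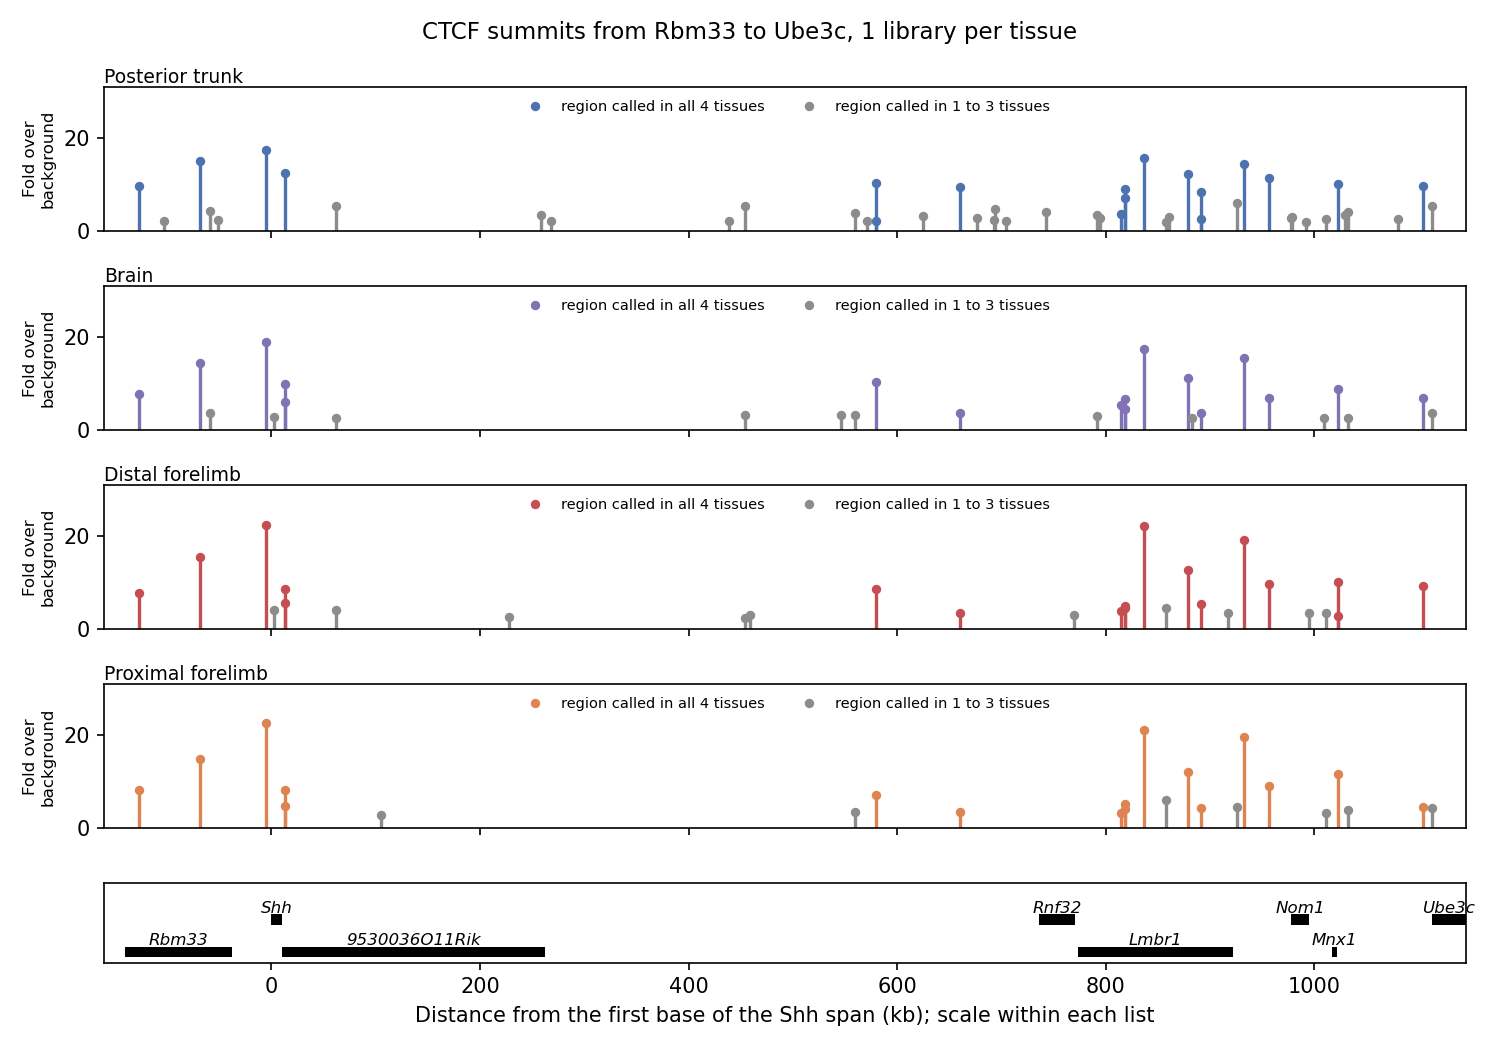
CTCF summits across the domain in the 4 tissues, with gene spans below; the x axis is the distance in kb from the first base of the Shh span and the y axis the authors' fold of pileup over local background, comparable within a list only. Coloured stems belong to the 15 regions called in all 4 tissues and grey stems to regions called in 1 to 3 tissues. Most coloured stems lie at Rbm33 and Shh and from Lmbr1 to Mnx1, and the others in the desert and towards Ube3c.

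The strongest CTCF site of the domain by fold lay beside Shh in every tissue. This region, 28451061-28451743, lies 5.10 kb from the Shh span on the side of Rbm33, an RNA-binding protein gene. Its authors' fold reached 17.5 for trunk, 18.98 for brain and, in the forelimb, 22.4 distally and 22.6 proximally. It ranked between percentiles 99.8 and 99.9 of each list, where the strongest peak stands at 100. The summits of the 4 libraries fell within 6 bases of each other. Its pileups, the numbers of extended reads at the summit, were 364, 343, 299 and 298 in the same order. The highest pileups of any peak in these lists were 399, 393, 368 and 365, so this site was close to the top of each. By pileup, the Lmbr1 site 29293073-29293766 stood higher in each list. The highest pileups were alike although the relative depth of trunk was 2.21. Whether pileup had a ceiling was not tested, so folds of the top sites cannot be compared between lists.

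The other side of Shh held a weaker shared site. Region 28469490-28470197, 2.39 kb from the Shh span and inside the span of the non-coding gene 9530036O11Rik, had folds of 12.6 in trunk, 10.05 in brain, 8.63 in distal and 8.18 in proximal forelimb. In trunk it stood at percentile 88.3, in brain at 71.8, and in each forelimb list at 59.6. Over all shared regions genome-wide the median percentile was also higher in trunk, at 75.8, than in brain (65.0), distal (59.9) or proximal forelimb (59.4). Within the 15 shared regions 28469490-28470197 was the fifth by fold in trunk, the seventh in brain, the ninth in distal and the eighth in proximal forelimb. Brain and both forelimb lists placed a weaker, further summit here, at 28469689, 28469681 and 28469730, with folds of 6.14, 5.58 and 4.80. The trunk list had only the main summit.

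Inside the Shh span there was 1 region, 28458988-28459246, called in brain and distal forelimb only. Its fold was 2.94 in brain and 4.25 in distal forelimb, at percentiles 13.3 and 24.0. The pileup was 27 in brain (95% Poisson interval 17.8 to 39.3) and 24 in distal forelimb (15.4 to 35.7). Such intervals cover counting error only. At the same occupancy trunk would have called it with a chance of at least 0.974, and proximal forelimb with a chance of 0.690 to 0.996. These chances take the pileup where the region was called, so they lean high near the threshold. They scale by lowest background alone and so assume equal enrichment in the libraries, which was not tested. In the thinned setting this region was called in distal forelimb only.

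Towards Rbm33, shared regions were 28388035-28388732 and 28329355-28329824, both in its span. The former had folds of 15.1, 14.4, 15.5 and 14.9 in trunk, brain, distal and proximal forelimb, and by fold it was the third of the 15 in trunk and followed directly on the leading 3 in the other tissues. The latter had 9.72, 7.83, 7.90 and 8.17. Between them and Shh, 28397948-28398327 had a fold of 4.44 in trunk and 3.68 in brain and was called in neither forelimb part. In distal forelimb a site of that occupancy had a chance of 0.942 to 0.989 of a call, and in proximal forelimb 0.953 to 0.996. Trunk alone called 28353941-28354158 and 28405206-28405449, with folds of 2.21 and 2.37.

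The desert between Shh and Rnf32 was poor in shared CTCF sites. Over 725.643 kb it held 19 regions, of which 3 were called in all 4 tissues, or 0.413 per 100 kb against 1.94 genome-wide and 3.36 within Lmbr1. From the shared region beside Shh to the next, no region was called in all 4 tissues for 566.199 kb, from 28470197 to 29036397. This gap was longer than 99.3% of the 51636 gaps between neighbouring shared regions in the genome, whose median was 19.8 kb. It still held 11 regions called in fewer tissues. Other gene deserts were not examined for comparison.

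Regions of the desert called in 3 tissues were 28518971-28519466, 28911093-28911459 and 29016306-29016661. The first, 51.9 kb from Shh, had folds of 5.46 in trunk, 2.72 in brain and 4.11 in distal forelimb. The second, in the non-coding gene Gm35688, had 5.53, 3.38 and 2.50, the last at percentile 1.53 of its list. Proximal forelimb lacked both, with chances of a call from 0.644 and 0.660 upward according to which tissue served as reference. The third was called in trunk at 3.87, in brain at 3.33 and in proximal forelimb at 3.64, and was absent from distal forelimb, where the chance was 0.873 to 0.966.

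The shared site 29036397-29037234, 155.5 kb from Rnf32, closed the long gap. Its folds were 10.3 in trunk and brain, 8.63 in distal and 7.25 in proximal forelimb. The next shared site, 29116969-29117377, had the widest spread of percentiles of the 15. It stood at 66.3 in trunk with a fold of 9.45, but at 29.8, 13.1 and 13.9 in brain, distal and proximal forelimb, with folds of 3.80, 3.53 and 3.63. Its pileups were 112, 40, 19 and 21, with intervals of 92.2 to 134.8 in trunk and 28.6 to 54.5 in brain. By lowest background, trunk and brain were nearly equal in depth. Trunk pileups were above those of brain at the other shared regions too, such as 216 against 108 at 29479058-29479840. The exception was 29270886-29271173, with 67 against 82. A trunk pileup above that of brain was thus not particular to 29116969-29117377. Relative to brain, the trunk pileup was highest there among the 15, ahead of 87 against 35 at 29347957-29348593. Among the 15 shared regions by fold, 29116969-29117377 was still twelfth in trunk, fourteenth in brain, last in distal and fourteenth in proximal forelimb.

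**Figure D2:**
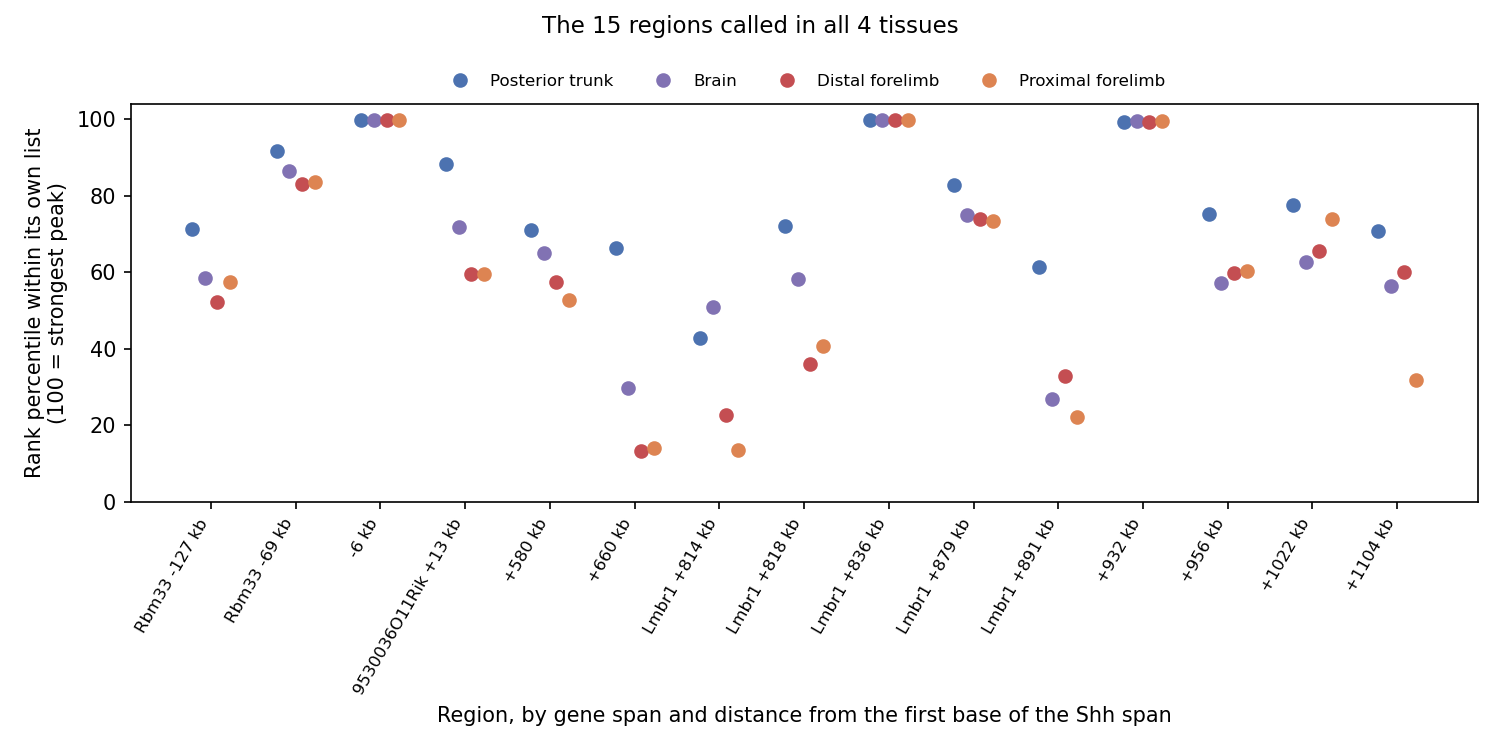
Rank percentile (y axis, 100 for the strongest peak of a list) of the 15 regions called in all 4 tissues, in order along the chromosome (x axis, labelled with any gene span they overlap and the distance in kb from the first base of the Shh span); each point is 1 library. The regions near Shh, in Lmbr1 and beyond it that exceed percentile 99 do so in every list, while the last site before the Lmbr1 span stands at 66.3 in trunk and between 13.1 and 29.8 elsewhere.

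Trunk-only regions of the desert numbered 9, of which 29150200-29150517 had the highest fold, 4.76, and the highest pileup among them, 51. If enrichment were equal, brain would have called a site of that occupancy with a chance near 1, and either forelimb part with at least 0.95. The region remained trunk-only in the thinned setting and in lists of equal length. Other weak trunk-only regions went down to 2.12 in fold, at 28725113-28725312 and 29027916-29028147. Forelimb-only regions in the desert were 28561794-28562149 in proximal forelimb, at 2.91 and percentile 3.72, and 28684686-28684973 and 28915549-28915748 in distal forelimb, at 2.71 and 3.15. Brain alone called 29002928-29003151, with a fold of 3.28.

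Rnf32 had no shared CTCF region in its span. Trunk alone called 29199637-29199971 there, with a fold of 4.22 at percentile 43.1 and a pileup of 59. Distal forelimb alone called 29226090-29226345, with a fold of 2.99. The former stayed trunk-only in the thinned setting. No peak of any list overlapped the Rnf32 promoter window, and the nearest, in trunk, was 3595 bases away.

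Lmbr1, which holds the limb enhancer, had more shared sites than any other gene span of the domain. In its 148.62 kb, 5 of 11 regions were called in all 4 tissues. This share was close to the 42.4% of all regions genome-wide. Lmbr1 was also the longest of the 5 member genes, so the count alone is no mark of it. Per length, both shared regions and regions of any kind were denser in Lmbr1 than genome-wide. The strongest shared site of Lmbr1 was 29293073-29293766, second by fold in every tissue. Its folds were 15.8 in trunk, 17.4 in brain, 22.2 in distal and 21.1 in proximal forelimb. By p it was the first in brain and distal forelimb, ahead of the site beside Shh. Its pileups were 377, 368, 302 and 308 in trunk, brain, distal and proximal forelimb, above those of the site beside Shh in each list. Its percentile was 99.9 in each list and its summits spanned 9 bases. Next came 29335669-29336404, with folds of 12.4, 11.2, 12.8 and 12.04, at percentiles between 73.4 and 82.9.

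Weaker shared sites of Lmbr1 varied more. Region 29347957-29348593 had 8.51 in trunk, 3.78 in brain, 5.36 in distal and 4.30 in proximal forelimb. Region 29270886-29271173 was the only shared site below percentile 99 that stood higher in brain, at 51.0, than in trunk, at 42.9, and it stood at 22.7 in distal and 13.5 in proximal forelimb. Its pileup was 82 in brain (65.2 to 101.8) and 67 in trunk (51.9 to 85.1), so their counting intervals overlapped. Region 29274797-29275806 was a doublet in every list. Its summits were at 29274950 and 29275578 in trunk, 29274965 and 29275566 in brain, 29274956 and 29275560 in distal and 29274952 and 29275575 in proximal forelimb. The forelimb lists split it into separate peaks. The latter summit had the higher fold in trunk (9.07 against 7.14), brain (6.69 against 4.53) and proximal forelimb (5.33 against 4.19), whereas in distal forelimb it had 4.57 against 4.95, with pileups of 32 and 35.

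A region of Lmbr1 with higher rank in the forelimb lists lay between the strongest shared sites. Region 29314582-29314943 was called in proximal forelimb with a fold of 6.19, in distal forelimb with 4.56 and in trunk with 1.95, and was not called in brain. It stood at percentile 42.0 of the proximal list and 28.4 of the distal list, but at 0.330 of the trunk list, just inside the threshold. The pileups were 37 (26.1 to 51.0), 27 (17.8 to 39.3) and 23 (14.6 to 34.5), and the trunk library was the deepest of the 4. Forelimb summits were at 29314799 and 29314803, and the trunk summit lay apart at 29314680. At the occupancy seen in forelimb, brain would have called it with a chance near 1, and at the occupancy seen in trunk with a chance of 0.443. In the thinned setting, at equal list length and under a stricter threshold (−log10 q ≥ 5), it was called in both forelimb parts and in no other tissue. The trunk call was also lost with a −log10 p of at least 5 and no thinning. As deposited it counts as missing from brain only, like 1 other region of the domain and 1.47% of all regions. Both forelimb libraries are the older data, so a forelimb difference cannot be told apart from one between data sets.

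**Figure D3:**
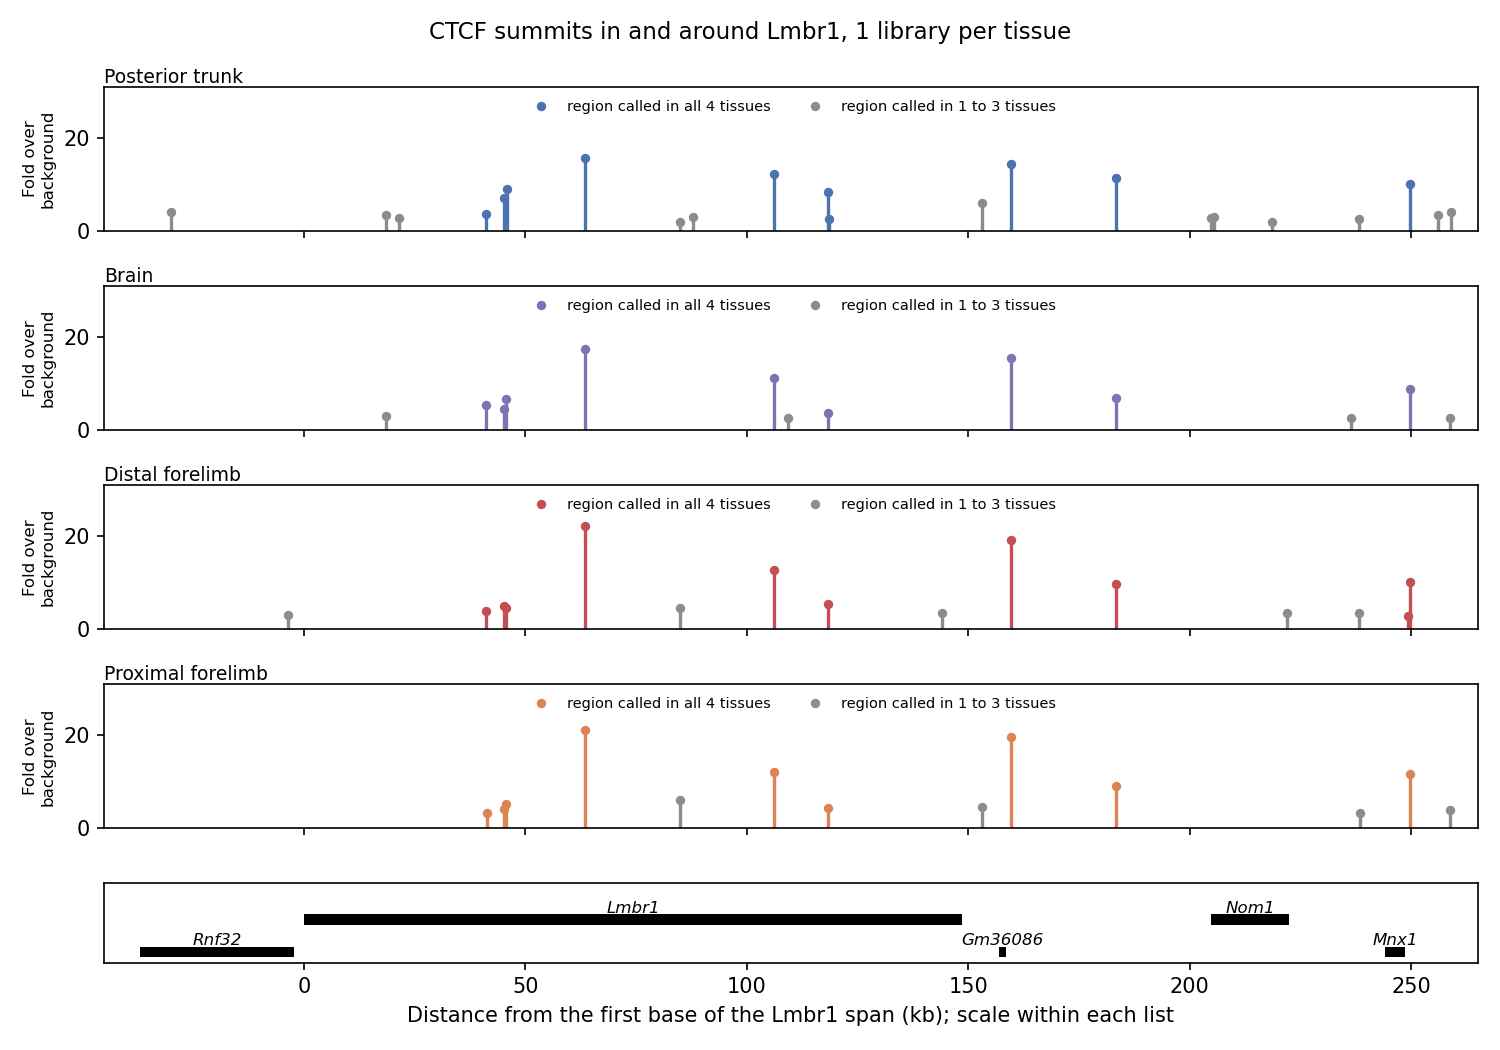
CTCF summits around Lmbr1 in the 4 tissues; the x axis is the distance in kb from the first base of the Lmbr1 span, the y axis the authors' fold of pileup over local background, and gene spans are below. Right of the tallest Lmbr1 stem, a grey stem reaches 6.19 in proximal forelimb and 4.56 in distal forelimb, is at 1.95 in trunk and is missing in brain.

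The other Lmbr1 regions were called in fewer tissues. Trunk and brain called 29248215-29248449, with folds of 3.61 and 3.17. Trunk alone called 29251095-29251381 at 2.85 and 29317485-29317726 at 3.08. Brain alone called 29339104-29339308, with a fold of 2.75 and a pileup of 46, close to the shared site 29335669-29336404. Distal forelimb alone called 29373868-29374249, with a fold of 3.44, and proximal forelimb would have called that occupancy with a chance of 0.952.

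Between Lmbr1 and Nom1 lay the third of the sites above percentile 99. Region 29389119-29389944, 10.7 kb from Lmbr1, had folds of 14.4, 15.6, 19.2 and 19.7 in trunk, brain, distal and proximal forelimb and percentiles from 99.3 to 99.6. By p the sites beside Shh, in Lmbr1 and here were the leading 3 of the domain in each of the 4 lists. By fold, trunk placed the Rbm33 site 28388035-28388732 ahead of this one. Region 29413042-29413416, 21.2 kb from Nom1, had folds of 11.5, 6.996, 9.76 and 9.09.

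Region 29382781-29383157, 4.36 kb from Lmbr1, had a fold of 6.07 in trunk and 4.57 in proximal forelimb, with summits 9 bases apart. It was missing from brain and distal forelimb, although a site of that occupancy had a chance of at least 0.997 of a call in either. The trunk pileup was 77 (60.8 to 96.2) and the proximal forelimb pileup 29 (19.4 to 41.6). The pattern held in the thinned setting, at equal list length and under the stricter threshold. It was 1 of the 7 regions called in only 1 forelimb part among those called in 2 or 3 tissues.

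**Figure D4:**
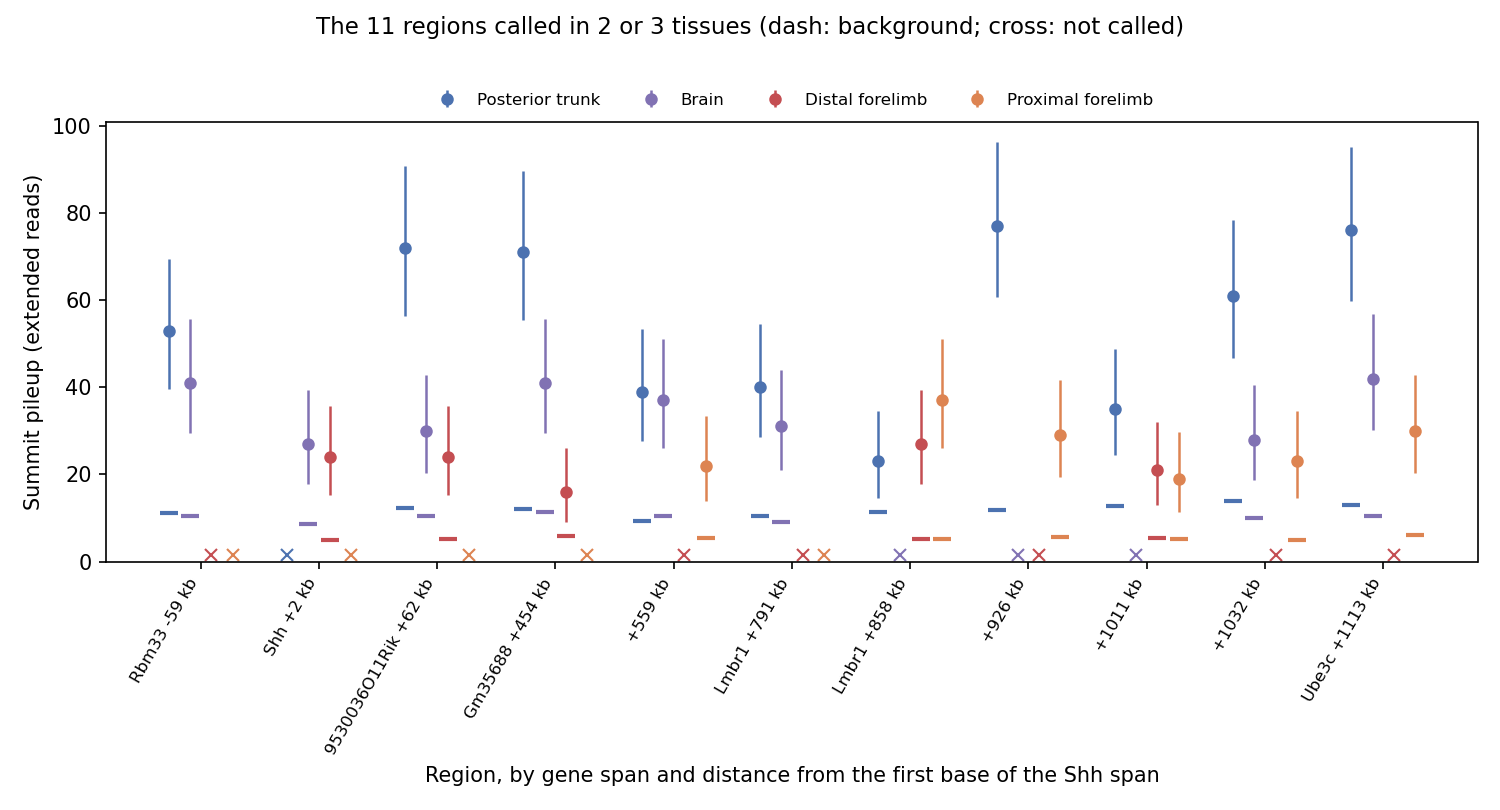
Summit pileup (y axis, extended reads) of the 11 regions called in 2 or 3 tissues, in order along the chromosome (x axis, gene span and distance in kb from the first base of the Shh span). Points are single libraries with 95% Poisson intervals for counting error, dashes are local backgrounds, and crosses mark lists without a call; pileups are not scaled for depth, and 1 of the Lmbr1 regions is highest, at 37, in proximal forelimb.

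Nom1 and Mnx1 differed in their sites. Nom1 had no shared region, but trunk-only regions at its start, 29434414-29434714 with a fold of 2.96 and 29435161-29435465 with 3.13. Its span further held trunk-only 29448277-29448583, at 1.95, and distal-forelimb-only 29451689-29451899, at 3.48. That last was the highest fold among the distal-only regions of the domain. Mnx1 had no region in its span, but the shared site 29479058-29479840 lay 0.588 kb away on its upstream side. Its folds were 10.1 in trunk, 8.83 in brain, 10.1 in distal and 11.7 in proximal forelimb, with summits within 8 bases of each other. Among the 15 it was the ninth by fold in trunk, the eighth in brain and the sixth in both forelimb parts.

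Around Mnx1 were also weaker sites. Region 29467929-29468285, 5.54 kb from Mnx1, was called in trunk at 2.62, distal forelimb at 3.49 and proximal forelimb at 3.29 and was missing from brain. In the thinned setting only distal forelimb still called it, while with the same −log10 p and no thinning the 3 calls remained. Brain alone called 29466059-29466296 nearby, with a fold of 2.66. On the far side, 29485666-29485995 was trunk-only at 3.44, and 29488487-29488910 was called in trunk at 4.16, brain at 2.62 and proximal forelimb at 4.04. Towards Ube3c, a ubiquitin ligase gene, 29537045-29537301 was trunk-only at 2.68. The shared site 29560518-29561112 had folds of 9.79 in trunk, 7.04 in brain, 9.26 in distal and 4.63 in proximal forelimb. Its percentile was 60.2 in distal and 31.9 in proximal forelimb, and its pileups there were 69 (53.7 to 87.3) and 32 (21.9 to 45.2), at nearly equal depth. In Ube3c, 29569512-29569984 was called in trunk at 5.50, brain at 3.75 and proximal forelimb at 4.44, and was missing from distal forelimb with a chance of a call of at least 0.95.

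Distal forelimb lacked 3 regions that the other tissues had, or 5.56% of the 54 against 2.85% of regions genome-wide. Proximal forelimb lacked 2 in this way (3.70% against 2.91%), brain 2 (3.70% against 1.47%) and trunk 0 (against 0.289%). Of the 19 trunk-only regions, 8 had a chance of 0.95 or more of a call in brain, and 3 in each forelimb part. These chances assume equal enrichment, yet trunk pileups were above those of brain at most shared regions, at nearly equal depth by lowest background. In each forelimb part 8 of the 19 had a chance under 0.5. The 3 trunk-only regions with the highest folds were 29150200-29150517, 29199637-29199971 and 29485666-29485995.

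**Figure D5:**
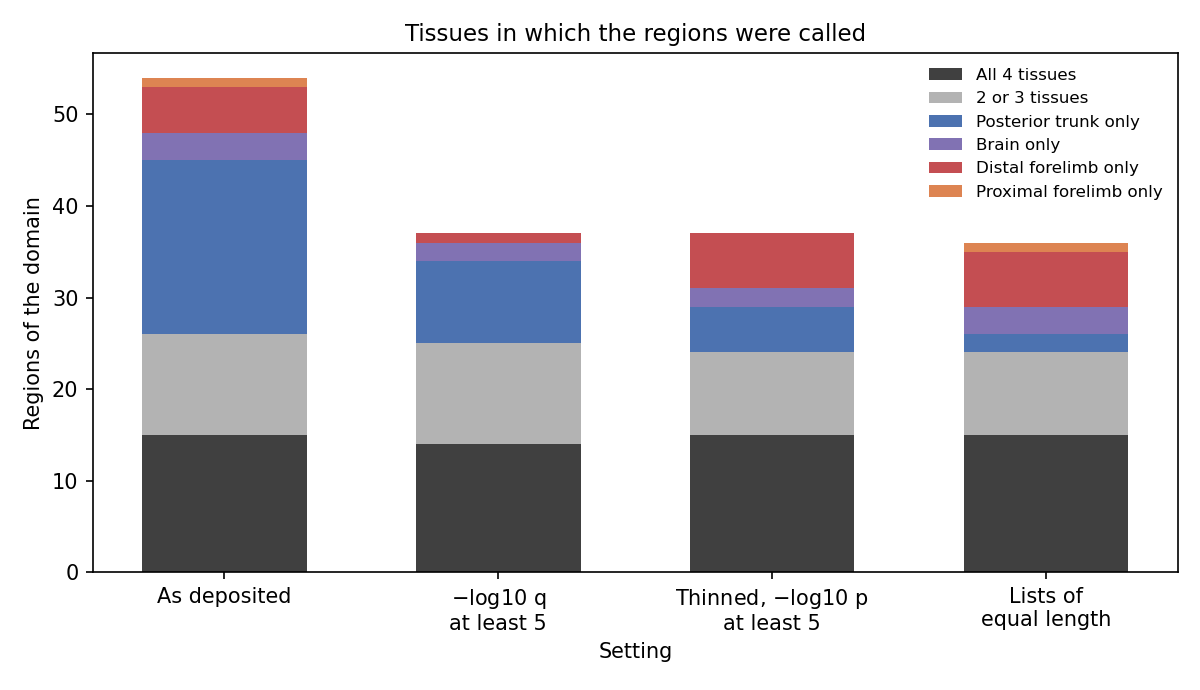
Number of regions in the domain (y axis) by the tissues in which they were called (colours), in the lists as deposited and under 3 other settings (x axis). The part called in all 4 tissues is 15, 14, 15 and 15, while the trunk-only part is 19, 9, 5 and 2.

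Summits at the shared sites were placed alike in the 4 lists. The range of the strongest summits had a median of 14 bases over the 15 regions, against 19 over all 51657 shared regions, and was at most 50 bases at 12 of 15, or 80%, against 90.8%. The exception over 150 bases was the Lmbr1 doublet, where the stronger summit changed, at 622 bases. Median percentiles of the 15 were 75.2 in trunk, 62.6 in brain, 59.8 in distal and 59.6 in proximal forelimb, and over all shared regions 75.8, 65.0, 59.9 and 59.4. The medians of the domain and of the genome thus lay within a few percentiles of each other.

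Other long developmental domains had slightly higher shares of regions called in all 4 tissues. From Sox9 to Kcnj2, with 150 kb added to either end, 25 of 81 regions (30.9%) were shared by the 4 tissues and 28 were in trunk only. From Epha4 to Pax3 these were 20 of 59, or 33.9%, and 19. Shared sites per 100 kb numbered 1.15 in the Shh to Mnx1 domain, 1.24 around Sox9 and 1.77 around Epha4, all under the 1.94 of the genome. Regions missing from brain only numbered 2, 2 and 1. Distal-only regions numbered 5 of 54 in the Shh to Mnx1 domain, 6 of 81 around Sox9 and 1 of 59 around Epha4. Genome-wide, 3.11% of all regions were distal-only, 28.4% trunk-only and 1.47% missing from brain only.

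Other genes of the hedgehog pathway also had CTCF regions near them. Within 50 kb of the spans of 17 such genes lay 280 regions, counted once per gene, of which 116 were called in all 4 tissues, or 41.4% against 42.4% of all regions. Each of the 17 had at least 1. The ligand genes Ihh and Dhh had 8 of 12 and 7 of 13, while the same window around Shh had 2 of 3, the sites on either side of it. The receptor gene Ptch1 had 5 of 18 and Smo, the signal transducer, 4 of 17. Among the effectors Gli1 had 8 of 20, Gli2 11 of 27 and Gli3, which acts mostly as a repressor in the limb, 5 of 22. Sufu, an inhibitor, had 15 of 25. Trunk-only regions made up 31.1% of the 280, against 28.4% of all regions, and lay near all 17 genes.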

How the data were processed

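The data were CTCF peak lists of 4 libraries, 1 per tissue, grouped by the tissue in the labels. The submitters' processing notes name MACS2 2.1.1.20160309, SAMtools 1.9, Bowtie2 2.3.5 and cutadapt 1.16, and build mm10. For their options and any control library, nothing is given in the sources used here. The deposited lists hold a fold (ratio of summit pileup to local background, with a pseudocount of 1), a −log10 p-value, a −log10 q-value and a score of 10 times the latter. Folds and p are the authors' values and describe peaks within their own list. The lowest −log10 q was 1.30 in each list.

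Rows of the same interval were merged to their strongest summit. Peaks sharing at least 1 base were joined. Percentiles rank peaks by p within a list. They depend on list length, which was 106662 peaks in trunk, 74127 in brain, 64793 in distal and 63873 in proximal forelimb. Fold and p together gave back whole pileups and backgrounds, with an error of at most 0.00034 in −log10 p. Absolute depth is unknown. The chance of a call in a list without one was computed from pileup and background scaled by relative depth, at the lowest p of that list. It assumes that the libraries were equally enriched. Scripts were tested on simulated data. Gene spans came from RefSeq (GRCm38.p6), without strand, so distances are to spans.

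Named genes are the 5 members and others overlapping the window. Named regions are those called in 2 or more tissues, the leading 3 per tissue of those called in 1 tissue, and those within 10 kb of a member. Further weak regions were named after their values were seen. The window, members and lists were chosen with earlier results of these data known. Alternatives were other thresholds, depth, list length, joining rules and leaving out trunk. The software was Python 3.11.15 with pandas 2.3.3, numpy 2.4.6, matplotlib 3.10.9 and scipy 1.17.1.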

Additional observations from a re-analysis of the deposited data

How the results depend on the processing

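Regions called in all 4 tissues numbered 14 or 15 in each setting run, and 15 in the 3 other tissues without trunk. Counts for 1 tissue were less stable. The thinned setting joins thinning with a −log10 p of at least 5. Trunk-only regions went from 19 to 9 under −log10 q ≥ 5 (24.3% of the regions left, against 28.4% genome-wide), to 5 in the thinned setting (13.5% against 20.5%) and to 2 in lists of equal length (5.56% against 6.48%). Regions called in trunk at all went from 44 to 28 in the thinned setting (75.7% against 88.7% genome-wide). At equal length they numbered 23 (63.9% against 75.9%). Under −log10 q ≥ 5, distal-only regions went from 5 to 1 (2.70% against 0.840%). Proximal-only regions went from 1 to 0 under that threshold (0% against 0.808%) and in the thinned setting (0% against 2.73%). Distal-only regions numbered 6 in the thinned setting (16.2% against 3.53%) and 6 at equal length (16.7% against 6.14%). A −log10 p of at least 5 without thinning, added after seeing the data, kept each count within 1.5 times its value as deposited, with 13 trunk-only and 1 proximal-only. Without the trunk list, brain-only regions became 5 (14.3% against 15.9%) and proximal-only regions 2 (5.71% against 6.05%). Regions shared with trunk then count for 1 tissue. Joining by summits within 150 bases, or by a larger minimum overlap, kept each count within 1.5 times its value as deposited. The order of the shared regions by p moved by more than 1 place in 6 of 60 cases, and by summed pileup in 21. The planned motif search within peaks needs a genome sequence and was not run; the promoter search was also added later. No paired analysis was possible because there was 1 library for each tissue.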
